A study of Mus musculus with 2 samples.

Results

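Integrins and laminins were read as 1 group of 37 genes in the intestine of WT and ERAP1+/- mice. Members were chosen by symbol alone, as the integrin α and β subunits (26 genes) and the laminin α, β and γ chains (11 genes), out of 40879 gene symbols measured. The study asked what reduced Erap1, which encodes an aminopeptidase of the endoplasmic reticulum that trims peptides for antigen presentation, does in the intestine. One library was made from intestinal tissue of WT C57BL/6 mice and 1 from ERAP1+/- mice of the same background, without a treatment named in the labels. The methods give an age of 8 weeks when mice were assigned to groups. The age at tissue collection is not given in the labels. Each library came from the pooled RNA of 3 mice, so no difference below has a replicate check and no p-value is given. The ERAP1+/- animals descended from a knockout-first embryonic stem cell clone crossed with a Cre strain, with exons 6 and 7 of the gene between loxP sites, and the methods do not name the promoter that drives Cre. They describe the mice both as germ-free and as kept under specific pathogen-free conditions, which both genotypes shared.

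Integrins are paired α and β chains that span the plasma membrane and hold cells to the matrix or to other cells. Laminins are cross-shaped trimers of 1 α, 1 β and 1 γ chain that form the sheet of the basement membrane under epithelium and around muscle, nerve and vessels. Integrin α6β4, a receptor of laminin-332, is part of the hemidesmosome, which ties keratin filaments to the basement membrane. Laminins of the α5 and γ1 chains lie under the gut epithelium. White blood cells use another set of integrins, with β2 or β7, to leave the blood and to stay within the epithelium.

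The libraries held 8114826 reads (WT) and 8907515 reads (ERAP1+/-). Erap1 had 229 reads in WT and 2 in the ERAP1+/- library, a ratio of 0.00730 (95% counting interval 0.000878 to 0.0267), which is lower than 1 intact copy beside 1 disrupted copy would give if both were transcribed alike, so the genotype is used here as the label gives it. The epithelial markers of the intestine were present in both libraries (14 of 14 with reads, 14922 CPM summed in WT and 13876 in ERAP1+/-). The WT library also held markers of other tissue. For suprabasal epidermis, the summed level was 3891 CPM in WT and 52.2 CPM in ERAP1+/- over 22 genes, of which 10 had no read in ERAP1+/- and Krt2 had none in both. For skeletal muscle it was 2176 CPM in WT and 316 CPM in ERAP1+/- over 22 genes. Xist had 1635 and 6451 reads, and 4 Y-linked genes had 72 to 319 reads in WT and 1 to 29 in ERAP1+/-, so the mix of sexes differed and cannot be told apart from genotype. CPM is counts per 1e6 reads after edgeR's TMM scaling, and differences are given on log2(CPM + 1), ERAP1+/- minus WT, a scale that understates the difference of low genes.

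The assay reads the 3′ end of each polyadenylated transcript, about once per molecule, so counts were not divided by gene length. The last 30 bases of the annotated transcript are shown for 5 members whose reads carry the contrasts below, since this is the end that the assay primes from. Capitals mark the polyadenylation signal (AATAAA or ATTAAA), and each sequence is on the transcript strand of GRCm38 with the GENCODE annotation.
Itga3: taaaataAATAAActgttcccagtttgtac
Itga2: ttaagtatcATTAAAagtgttttgacagta
Itgb4: gcacttAATAAAaggttttgctactgctta
Itgb1: taaAATAAAaaggcctaaatacattaagtg
Lamb1: taAATAAAagacattggttttgtataaaca
These ends lie at chr11:95044474-95044503 (minus strand, Itga3), chr13:114833081-114833110 (minus, Itga2), chr11:116008383-116008412 (plus, Itgb4), chr8:128733171-128733200 (plus, Itgb1) and chr12:31329615-31329644 (plus, Lamb1), each in the last exon and 3′ untranslated region. One of these signals, sought on the transcript strand only, stood within the last 40 bases of 32 of 37 members (86.5%) and of 13984 of 21287 protein-coding genes (65.7%). Which ends were used in these libraries was not tested.

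Every member had at least 1 read in ERAP1+/-, and Itgad had none in WT. Of the 37, 35 had at least 10 reads over both libraries. The others were Itgad, a β2-associated subunit (0 reads in WT and 3 in ERAP1+/-), and Itga10, a collagen receptor of cartilage (4 and 5 reads). A level of 4 on log2(CPM + 1), which is 15 CPM, was reached in 1 or both libraries by 20 members, 13 integrins and 7 laminins. Of these, 1 differed by more than 2-fold, Itga3, which was lower in ERAP1+/-, against 428 of 8013 genes (5.34%) at that level. In the higher direction there were 0 members against 1.39% of genes, and in the lower direction 1 against 3.96%. Just inside the threshold of 1 on the log2 scale was Itga3 at -1.38, and just outside was Itga2 at 0.996.

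**Figure D1:**
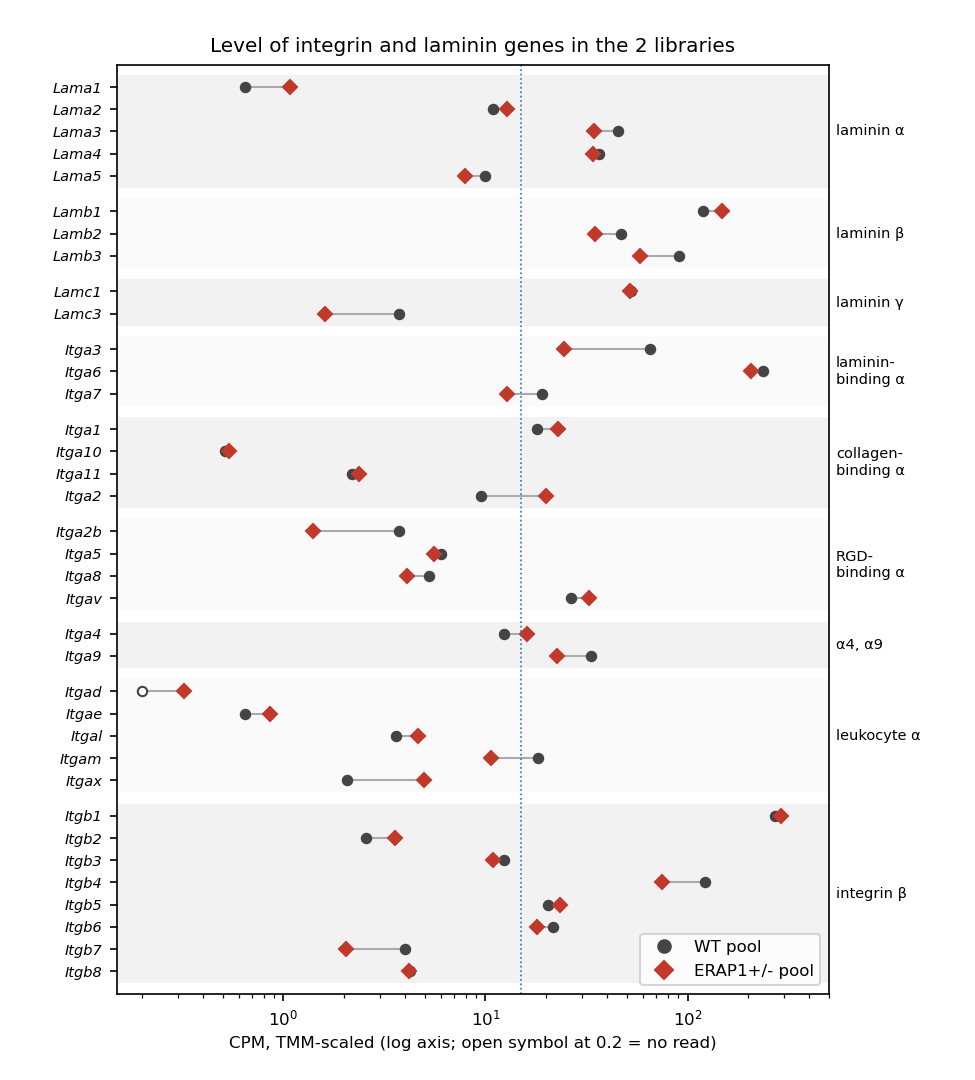
Level of 36 integrins and laminins in the WT and the ERAP1+/- library, in TMM-scaled CPM on a log axis, 1 point per library, with no replicates. The dotted line marks 15 CPM (4 on log2(CPM + 1)). The points of most members lie close together, and Itga3 shows the widest gap among members above the line (65.2 CPM in WT and 24.4 in ERAP1+/-).

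Among the 35 members with at least 10 reads, 14 were higher and 21 lower in ERAP1+/-, with a median difference of -0.10, beside 0.002 over all 16142 genes with as many reads. The exact 95% interval of the ratio, which covers counting error only, lay above 1 for 7 members (20.0%, against 20.6% of genes) and below 1 for 13 members (37.1%, against 23.8% of genes). With scaling by total counts alone the split became 18 higher and 17 lower (median 0.01), with 8 intervals above and 11 below 1. Intervals exclude 1 more readily where reads are many. Shares over all genes with at least 10 reads, here and below, are not matched for depth. The sections that follow take the chains by role. In tissue RNA, fewer cells of a type and less RNA per cell cannot be told apart, and this holds for each value.

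Laminin α chains set which cell receptor a laminin binds. Lama3, the α chain of laminin-332, had 351 reads in WT and 319 in ERAP1+/- (45.2 and 34.3 CPM), a ratio of 0.759 (0.650 to 0.886). Lama4, of vessels and mesenchyme, had 283 and 315 reads (36.4 and 33.9 CPM), a ratio of 0.930 (0.789 to 1.10). Thus the α chain of laminin-332 was lower beyond counting error and the vessel chain was not resolved from 1. Lama5, the broad epithelial chain, had 77 and 74 reads (ratio 0.803, 0.575 to 1.12). Lama2, of muscle and nerve, had 85 and 119 reads (ratio 1.17, 0.878 to 1.56). Lama1, best known from the embryo, was near the bottom of the range with 5 and 10 reads (ratio 1.67, 0.520 to 6.23), and none of these last 3 intervals left 1.

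The β chains moved apart. Lamb1, the β chain of most laminins with γ1, had 924 reads in WT and 1379 in ERAP1+/- (119 and 148 CPM), a ratio of 1.25 (1.15 to 1.36). Lamb3, found only in laminin-332, had 708 and 542 reads (91.1 and 58.3 CPM) and was 1.56-fold lower (1.40 to 1.75). Lamb2, of the neuromuscular junction and vessels, had 362 and 325 reads (46.6 and 34.9 CPM), a ratio of 0.750 (0.644 to 0.874). Lamb1 was the 1 laminin whose interval lay above 1. As a share of all β chain reads within a library, which no scaling between libraries enters, Lamb1 made up 46.3% in WT (exact binomial 95% interval 44.1 to 48.6) and 61.4% in ERAP1+/- (59.3 to 63.4). Lamb3 made up 35.5% (33.4 to 37.7) and 24.1% (22.4 to 26.0).

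Among γ chains, Lamc1, the common γ chain, had 406 and 483 reads (52.2 and 51.9 CPM), a ratio of 0.994 (0.869 to 1.14). Lamc3, of nerve and vessels, had 29 and 15 reads, a ratio of 0.432 (0.215 to 0.833), below 15 CPM in both libraries. The common chain was thus level between the libraries, and the rarer chain was lower beyond counting error. Over all 11 laminins, 3 were higher and 8 lower, with a median difference of -0.28, which became -0.17 with 5 higher and 6 lower when libraries were scaled by total counts.

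**Figure D2:**
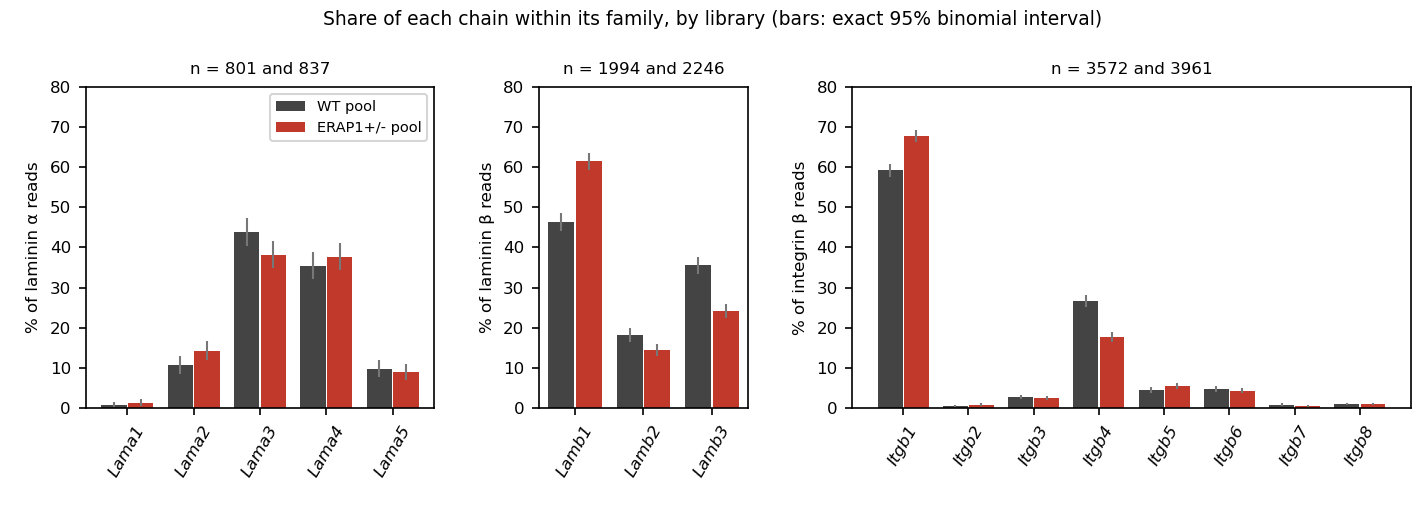
Share of each chain among the reads of its family (laminin α chains, laminin β chains, integrin β subunits) in the WT and the ERAP1+/- library, in percent, with exact binomial 95% intervals that cover counting error only. Lamb1 and Itgb1 took larger shares in ERAP1+/-, and Lamb3 and Itgb4 smaller ones.

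Among integrin α subunits that bind laminin, Itga6, which pairs with β4 in hemidesmosomes and with β1 elsewhere, had the most reads of the 18 α subunits. It had 1839 reads in WT and 1907 in ERAP1+/- (237 and 205 CPM), a ratio of 0.866 (0.812 to 0.924). Itga3, the α subunit of α3β1, a receptor for laminin-332 and laminin-511, had 507 and 227 reads (65.2 and 24.4 CPM). It was 2.67-fold lower in ERAP1+/- (2.28 to 3.14), -1.38 on log2(CPM + 1), which placed it at percentile 2.40 of the 8013 genes ordered from the most negative difference up. Itga3 made up 14.1% of α subunit reads in WT (13.0 to 15.3) and 6.23% in ERAP1+/- (5.47 to 7.07), while Itga6 held 51.1% and 52.4%. Itga7, the laminin receptor of skeletal, cardiac and smooth muscle, had 148 and 119 reads (19.0 and 12.8 CPM), a ratio of 0.672 (0.523 to 0.861). All 3 were lower, although with total counts the interval of Itga6 included 1.

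The collagen receptors with at least 10 reads had ratios above 1. Itga2, the α subunit of α2β1 in epithelium, platelets and fibroblasts, had 74 reads in WT and 186 in ERAP1+/- (9.52 and 20.0 CPM), a ratio of 2.10 (1.60 to 2.79). Its difference of 0.996 on log2(CPM + 1) fell short of the threshold, and scaling by total counts or a pseudocount of 0.1 in place of 1 carried it past. Itga1, of smooth muscle, fibroblasts and resident T cells, had 140 and 212 reads (18.0 and 22.8 CPM), a ratio of 1.27 (1.02 to 1.58). Itga11, of fibroblasts, had 17 and 22 reads (ratio 1.08, 0.548 to 2.17). These 3 were all higher, 2 of them with an interval above 1, where 20.6% of all genes had one. The interval of Itga1 began close to 1, and Itga10 had too few reads to count. Set against each other within a library, Itga2 had 0.146 reads for each read of Itga3 in WT (0.113 to 0.187) and 0.819 in ERAP1+/- (0.671 to 0.999).

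Receptors of the RGD motif, which is found in fibronectin and vitronectin, were mixed. Among 4 genes, 1 interval lay above 1 and 1 below, where 20.6% and 23.8% of all genes had them. Itgav, which pairs with several β subunits, had 207 and 302 reads (26.6 and 32.5 CPM), a ratio of 1.22 (1.02 to 1.46). Itga5, the fibronectin receptor, had 47 and 52 reads (ratio 0.924, 0.611 to 1.40). Itga8, of smooth muscle and mesenchyme, had 41 and 38 reads (ratio 0.774, 0.485 to 1.23). Itga2b, the platelet subunit, had 29 reads in WT and 13 in ERAP1+/-, a ratio of 0.374 (0.179 to 0.743). The other platelet markers did not move as a group. The chemokine Ppbp had 394 and 66 reads (ratio 0.140, 0.106 to 0.182), Pf4 had 374 and 415 (ratio 0.927, 0.804 to 1.07) and Gp6 had 14 and 18 (ratio 1.07, 0.505 to 2.33), while Gp1ba, Gp9 and Treml1 had no read in both libraries. The part of platelet RNA in the value of Itga2b was not tested. Itga9, a tenascin and VCAM-1 receptor of smooth muscle, had 258 and 209 reads (33.2 and 22.5 CPM), a ratio of 0.677 (0.561 to 0.815).

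Of the β subunits, Itgb1, the partner of most α subunits, had 2115 reads in WT and 2685 in ERAP1+/- (272 and 289 CPM), a ratio of 1.06 (1.00 to 1.12). Itgb4, which pairs with α6 alone, had 951 and 699 reads (122 and 75.1 CPM) and was 1.63-fold lower (1.48 to 1.80). The balance of the most read β subunits therefore differed between the libraries. Itgb1 had 2.22 reads for each read of Itgb4 in WT (2.06 to 2.40) and 3.84 in ERAP1+/- (3.53 to 4.18), and its share of β subunit reads was 59.2% (57.6 to 60.8) and 67.8% (66.3 to 69.2). The partners of αv were close to 1. Itgb5, the vitronectin partner, had 158 and 218 reads (ratio 1.15, 0.935 to 1.42), and Itgb6, an epithelial activator of TGF-β with αv, had 168 and 167 reads (ratio 0.830, 0.666 to 1.04). Itgb3, of platelets and vessels, had 96 and 101 reads (ratio 0.879, 0.658 to 1.17), and Itgb8, which also activates TGF-β, had 33 and 39 (ratio 0.987, 0.605 to 1.62). None of these 4 intervals excluded 1, although with total counts that of Itgb5 did (1.02 to 1.55). Over the 24 integrins with at least 10 reads, 11 were higher and 13 lower (median -0.06), which turned to 13 higher and 11 lower (median 0.05) with total counts.

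Leukocyte integrins were read at low depth, 338 reads in WT and 401 in ERAP1+/- over 8 genes, so that intervals were wide. Itgam, the CD11b chain of neutrophils and macrophages, had 142 and 99 reads (18.3 and 10.6 CPM), a ratio of 0.582 (0.446 to 0.758). Itgax, the CD11c chain of dendritic cells and macrophages, had 16 and 46 reads, a ratio of 2.40 (1.33 to 4.54), below the level of 15 CPM in both libraries. These 2 partners of β2 thus lay on opposite sides of 1. Itgb2 itself had 20 and 33 reads (ratio 1.38, 0.768 to 2.53), and Itgal, the LFA-1 chain of lymphocytes, had 28 and 43 (ratio 1.28, 0.779 to 2.14). The α subunits of gut homing and of intraepithelial T cells were Itga4, with 96 and 150 reads (12.4 and 16.1 CPM, ratio 1.31, 1.00 to 1.70), and Itgae, the E-cadherin receptor, with 5 and 8 reads (ratio 1.34, 0.386 to 5.19). Their shared partner Itgb7 went the other way, with 31 and 19 reads (ratio 0.512, 0.273 to 0.935). Both were near the edge of counting error. With total counts the interval of Itgb7 included 1 (0.298 to 1.02), and with the ERAP1+/- library thinned that of Itga4 did too. Of the 7 leukocyte integrins with at least 10 reads, 5 were higher and 2 lower, with a median difference of 0.29. Among them, 2 intervals lay above 1 (28.6%, against 20.6% of all genes) and 2 below (28.6%, against 23.8%). Summed over the 8 genes, the level was 43.5 CPM in WT and 43.1 in ERAP1+/-, a ratio of 0.991 (0.855 to 1.15). As a group they thus had no resolved direction.

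Markers of the cells that carry these integrins stood beside them as follows. Macrophage and dendritic cell markers summed to 1783 reads in WT and 2598 in ERAP1+/- (median difference 0.07 over 11 genes). Neutrophil markers summed to 105 and 362 reads, nearly all from S100a8 (49 and 165 reads) and S100a9 (52 and 171). Of the 8 genes in that list, only 3 had at least 10 reads over both libraries. Itgam was therefore lower in the library in which S100a8 and S100a9 were higher. T and NK cell markers summed to 79 and 117 reads (median 0.15 over 6 genes), and B cell markers to 121 and 270 (median 0.50 over 7 genes). The part of cell numbers in the integrin values was not tested. Other lists had median differences of -0.08 (endothelium), -0.14 (fibroblasts) and 0.33 (enteric neurons and glia). For platelets and megakaryocytes it was -0.54 over 4 genes, among them the member Itga2b, so that list is not independent of the integrins.

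**Figure D3:**
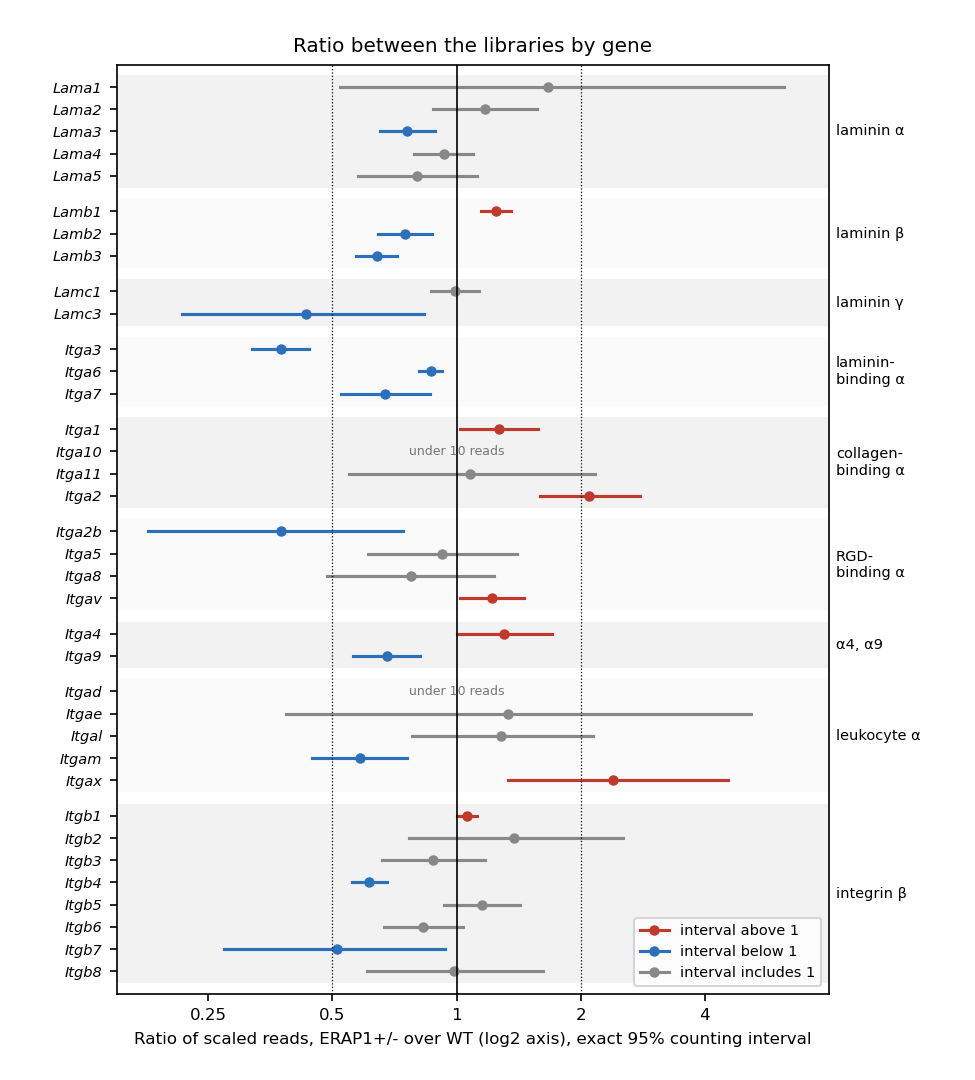
Ratio of scaled counts, ERAP1+/- over WT, for 34 integrins and laminins with at least 10 reads, on a log axis, with exact 95% counting intervals and a line at 1. The intervals of 12 members drawn lie below 1, among them Itga3, Lamb3 and Itgb4, and those of 7 lie above 1, among them Itga2, Itgax and Lamb1.

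Read together, the laminin-332 chains Lama3 and Lamb3 and both chains of α6β4, Itga6 and Itgb4, were lower in ERAP1+/- in 4 of 4 cases. Each was lower beyond counting error, as were 23.8% of all genes with at least 10 reads, a share not matched for depth. The median difference was -0.51. These 4 genes were grouped with earlier results of these data known. Together they had 3849 reads in WT and 3467 in ERAP1+/-, 1.33-fold lower (1.27 to 1.39). With total counts the median was -0.39, and 3 of 4 intervals stayed below 1, all but that of Itga6. The chains of laminin-511 (Lama5, Lamb1, Lamc1) summed to 1407 and 1936 reads, a ratio of 1.15 (1.07 to 1.23). Those of laminin-411 (Lama4, Lamb1, Lamc1) had a ratio of 1.13 and those of laminin-211 (Lama2, Lamb1, Lamc1) of 1.17, and Lamb1 gave most of the reads in each sum. None of the α and γ chains of these 3 laminins had an interval that excluded 1, so the sums above 1 rested on Lamb1.

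The partners of the hemidesmosome were lower too. Of 7 genes, 6 had at least 10 reads, and all 6 were lower beyond counting error. So were 23.8% of all genes, a share not matched for depth. Their median difference was -1.26. Past the 2-fold threshold were 2 of the 5 at the level of 15 CPM, both lower, where 3.96% of genes at that level were. They were the basal keratins Krt5 (418 reads in WT and 73 in ERAP1+/-, difference -2.63) and Krt14 (623 and 97 reads, -2.83). The linker proteins differed less, with 2767 and 2227 reads for Plec (-0.57) and 1385 and 1394 for Dst (-0.25), and the tetraspanin Cd151 had 1283 and 1207 (-0.34). Col17a1 had 35 and 4 reads, 10.5-fold lower (3.75 to 40.6), and Col7a1, of the anchoring fibrils, had 7 and 0, so that it was lower by at least 2.79-fold when its 0 was set to a floor of 3 reads. Both were named after their values were seen. Krt5, Krt14, Col17a1 and Dst also belong to the markers of basal stratified epithelium, a list of 12 of which 12 were lower (median -2.31, 1216 CPM summed in WT and 454 in ERAP1+/-). All 21 suprabasal markers with at least 10 reads were lower as well, with a median of -5.41. The part of stratified epithelium in the values of Itga3, Itga6, Itgb4, Lama3 and Lamb3 was not tested, and it cannot be told apart from genotype with 1 library each.

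Muscle was read in the same way. The 22 skeletal muscle markers were all lower (median -4.57), as were 11 of 11 of smooth muscle (median -0.91, 88631 reads in WT and 54165 in ERAP1+/-), beside Itga7 at -0.54 and Itga9 at -0.54 and beside Lama2 at 0.21. Their part in these values was not tested. The 14 markers of intestinal epithelium had a median of -0.32, with 4 higher and 10 lower. Past the 2-fold threshold were the mucin Muc2, higher at 12020 and 32939 reads (ratio 2.29, 2.24 to 2.34), and the keratin Krt20, lower at 5156 and 2674 (ratio 0.433, 0.413 to 0.454). Lgals4, a galectin of enterocytes, had 22956 and 27348 reads (ratio 0.995).

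**Figure D4:**
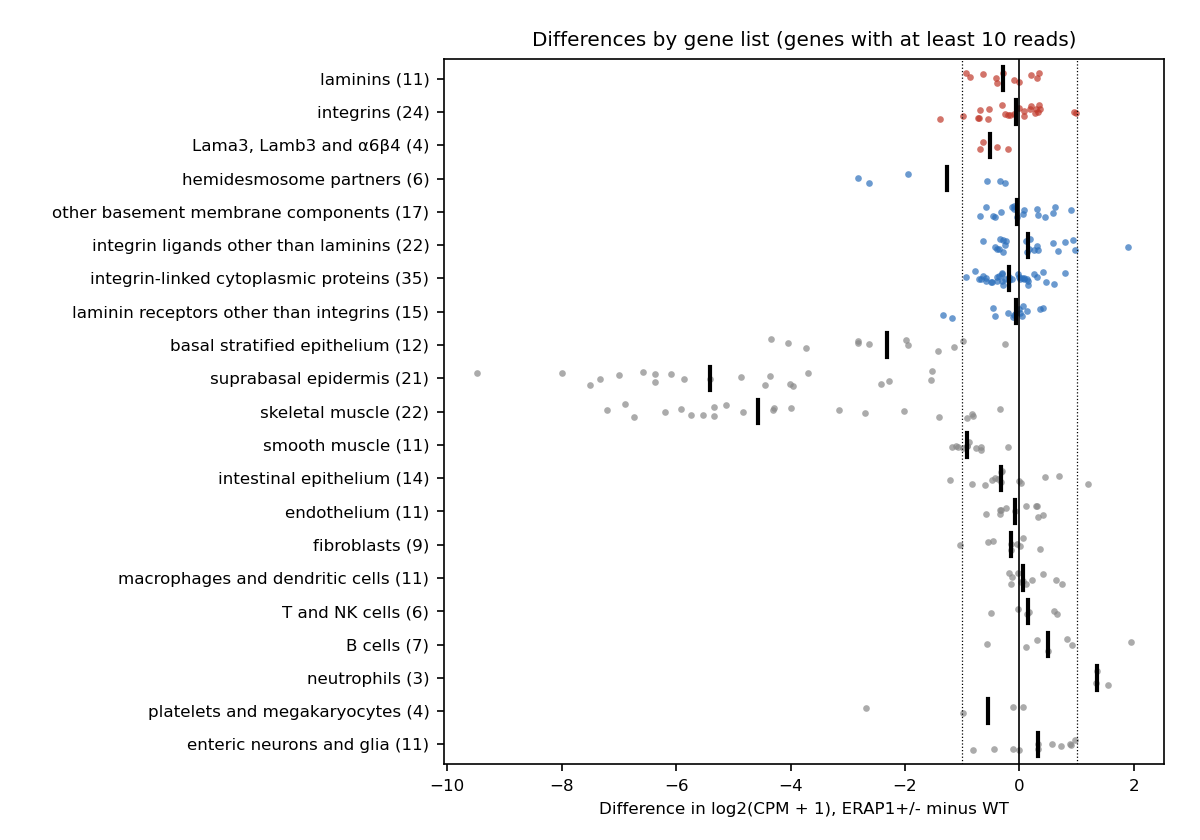
Difference in log2(CPM + 1), ERAP1+/- minus WT, for each gene with at least 10 reads, by list, 1 point per gene, with the median as a black bar and dotted lines at the 2-fold threshold. The number in brackets is the number of genes plotted. The median was -0.28 for laminins and -0.06 for integrins. It was -0.51 for Lama3, Lamb3, Itga6 and Itgb4, which are also among them. The stratified epithelium and skeletal muscle lists lie far below.

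The other parts of the adhesion machinery showed 0 genes past the threshold in 4 lists, which held 10 (basement membrane), 30 (cytoplasmic), 13 (ligands) and 10 (receptors) genes at the level of 15 CPM. Over all genes at that level the share was 5.34%, so lists of this size would hold few such genes. Of other basement membrane components, 17 of 20 had at least 10 reads, 8 higher and 9 lower (median -0.04). The type IV collagen chains Col4a1, with 719 and 910 reads (ratio 1.06, 0.958 to 1.17), and Col4a2, with 431 and 410 (ratio 0.795, 0.692 to 0.912), did not move together. Ecm1, a matrix glycoprotein, had 592 and 439 reads (ratio 0.619, 0.546 to 0.702). The secreted glycoprotein Sparc had the most reads, 3485 and 3810 (ratio 0.913, 0.872 to 0.956), and the list as a whole lay close to 0. Of 35 integrin-linked cytoplasmic proteins, 13 were higher and 22 lower (median -0.18). Their intervals lay above 1 for 6 and below 1 for 17, where 20.6% and 23.8% of all genes had them. Of these 35, 30 reached 15 CPM, against 8013 of the 16142 genes behind the shares. The shares are thus not matched for depth. With total counts there were 15 higher and 20 lower (median -0.06), with 11 intervals above and 16 below 1. The most read were Actn4, an actin crosslinker, at 8269 and 6209 reads (-0.67), and Flna, filamin, at 4530 and 4227 (-0.36).

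Among ligands of integrins other than laminins, 22 of 28 had at least 10 reads, 13 higher and 9 lower (median 0.15). Fibronectin (Fn1) had 1567 and 1420 reads (ratio 0.757, 0.704 to 0.814), and E-cadherin (Cdh1), the ligand of αEβ7, had 18810 and 16678 (ratio 0.741, 0.725 to 0.756). Madcam1, the vessel ligand of α4β7, had 1 read in WT and 30 in ERAP1+/-, a ratio of 25.1 (4.17 to 1022) that its single WT read leaves wide, and it was named after its values were seen. Of 15 laminin receptors other than integrins, 6 were higher and 9 lower (median -0.05), with dystroglycan (Dag1) at 2095 and 2341 reads (ratio 0.933, 0.880 to 0.991) and utrophin (Utrn) at 875 and 1144 (ratio 1.09, 0.999 to 1.19). The most read was Rpsa, the laminin receptor that is also a ribosomal protein and has many near-identical copies in the genome, at 2275 and 3609 (ratio 1.33, 1.26 to 1.40), an uncertain value for that reason. Medians of the basement membrane and of these receptor lists turned to 0.06 with total counts, so neither has a direction.

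Some members lie across a neighbouring gene at the end that is counted. The last exon of 6 of 37 members overlapped the annotated span of another gene, from its start to its end. The overlap was on the same strand for Itgam and on the opposite strand for Itga4, Itga7, Itga9, Itgad and Lama2. Whether it fell in an exon or an intron of the neighbour was not tested. Whether counting used strand is not given in the sources used here. For Itga7 the neighbour Mettl7b had 345 reads in WT and 427 in ERAP1+/-, more than Itga7 itself, and for Itgad the neighbour Cox6a2 had 112 and 13. For Itga4 the neighbour Cerkl had 6 and 6. The values of these 6 members are uncertain to that extent, and Itga3 is not among them.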

How the data were processed

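RNA from the intestine of 3 mice per genotype was pooled and made into 1 QuantSeq 3′ FWD library per genotype, read as single ends of 75 bases. The authors deposited read counts per gene symbol, not normalized. Their methods name both STAR with HTSeq-count and Bowtie2 with RSEM on GRCm38, and the versions are not given in the sources used here. No column of per-sample values was left unused.

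Counts of 40879 symbols were scaled with TMM factors of 0.958 (WT) and 1.04 (ERAP1+/-), computed in edgeR 4.0.16 under R 4.3.3, and put on log2(CPM + 1). The methods' test needs replicates, so a gene was called by size alone, where it reached 4 in 1 or both libraries and differed by more than 2-fold. Ratios have exact conditional Clopper-Pearson 95% intervals (scipy 1.17.1) that cover counting error only. Group medians used genes with at least 10 reads. A floor of 3 reads, 0.386 CPM in WT and 0.322 in ERAP1+/-, replaced a count of 0 only where a fold is given as at least a value. Differences, medians and summed levels kept the count of 0. A simulation without biological spread recovered 200 of 200 genes changed 4-fold and called 0 unchanged genes, which checks the computation only. Alternatives were other scalings (DESeq2 1.42.0 size factors, total counts, TMM without skin and muscle genes, thinning), another pseudocount, other filters and thresholds, and edgeR's exact test at an assumed variation.

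Members and gene lists were chosen with earlier results of these data known. Results that name 1 member are not reported here, and group counts and medians include it. The other members are described; from the partner and marker lists, those changed more than 2-fold (at most 6) and the most read (at most 4) could be named, with exceptions stated beside them.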

Additional observations from a re-analysis of the deposited data

How the results depend on the processing

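No paired analysis was possible because only 1 library was made from either genotype. The count of members past the threshold, 1 as reported (Itga3), was 1 as well with DESeq2 size factors, TMM without the skin and skeletal muscle lists, a thinned ERAP1+/- library, no filter on level, a filter of 10 reads and a level of 6. It was 2 (Itga2 and Itga3) with total count scaling and 2 with a pseudocount of 0.1, 0 with a 4-fold threshold, and 0 at an adjusted p of 0.05 in the edgeR exact test, for which a biological variation of 0.4 had to be assumed. Scaling by total counts moved the median difference of the genes that reached the level as reported by 0.12 and gave 166 higher and 248 lower calls in place of 111 and 317. It put 3 of 35 member ratios outside their own counting interval and turned 4 to the other side of 1 (Itga5, Itgb8, Lama4, Lamc1), and thinning turned 1 (Itgb8), and the intervals of these 4 members included 1. The integrin median, -0.06 as reported, was 0.05 with total counts and 0.003 with genes of at least 1 read, so it has no direction. Medians of the laminins and of the leukocyte integrins kept their sign in each alternative run. The limits are 1 library per genotype, pooled animals, and depth, since 15 members with 10 reads or more stayed below 15 CPM in both libraries.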

Other observations

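A few genes carry an integrin name and lie outside both families. Itgbl1, a secreted protein with integrin β-like repeats, had 20 reads in WT and 4 in ERAP1+/-, 5.99-fold lower (2.01 to 24.1), below the level of 15 CPM in both libraries. Itgb2l, an Itgb2-like gene, had 0 reads in both, each below a floor of 3 reads. Itgb1bp1, an intracellular binding partner of the β1 tail, had 122 and 145 reads, a ratio of 0.993 (0.775 to 1.27). Itgb1bp2, by name also a β1-binding protein, had 39 and 20 reads, a ratio of 0.428 (0.237 to 0.753), below 15 CPM in both libraries. Itgb3bp, a β3-binding protein that also serves at the centromere, had 48 and 92 reads, a ratio of 1.60 (1.12 to 2.32). These were named after their values were seen.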
